A study of Homo sapiens with 12 samples.

Results

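The genes described here are 32 genes of cholesterol and fatty acid synthesis, of 60660 gene identifiers in the deposited counts. They were chosen by name, with earlier results of these data known, and each symbol matched 1 Ensembl identifier. RNA-seq was done on HEK293 cells, a human embryonic kidney line that the labels call HEK293T, in 6 groups of 2 libraries. One group received a control siRNA (siCTL, labelled wild type) and the others an siRNA against CARM1, CHD4, HDAC2, GATAD2A or KDM1A (siCARM1, siCHD4, siHDAC2, siGATAD2A and siKDM1A, labelled knock down). CARM1 is an arginine methyltransferase, CHD4, HDAC2 and GATAD2A are subunits of the nucleosome remodelling and deacetylase (NuRD) complex, and KDM1A is a histone demethylase that associates with it. All groups were grown in the same serum-containing medium and transfected with lipid, and no genotype of the line other than the siRNA target is given. The methods list a single siRNA sequence for each target except CARM1, so an effect of the sequence itself cannot be told apart from that of the knockdown. Whether the 2 libraries of a group came from separate cultures is not stated, so p-values measure the spread between these libraries, which may be technical.

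Cholesterol is built from acetyl-CoA through the mevalonate pathway to farnesyl pyrophosphate and squalene, and then through a series of changes to the sterol rings. Fatty acids are made from the same acetyl-CoA, then lengthened and desaturated. Both sets of enzymes are known targets of the SREBP transcription factors, the products of SREBF1 and SREBF2, which the escort protein SCAP carries out of the endoplasmic reticulum when sterol is scarce and the INSIG proteins hold back when it is plentiful. Sterol efflux through ABCA1 is under the oxysterol receptors (LXR), which also induce SREBF1 and SCD.

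The promoters of these genes are shown first, as the region searched for SREBP sites and their usual partner sites. RefSeq promoters of GRCh38.p14 were matched for 28 of the 32 genes and gave 38 start sites, since 8 genes had several. In the 250 bases before the start, on both strands, the letters TCACNCCAC (a sterol element) were found in 1 of the 38 promoters (2.63%), that of SREBF2, and in 0.883% of all 35116 promoters. CACGTG (an E box) was found in 13.2% of the promoters of the list and 6.34% of all, CCAAT (the NF-Y box) in 60.5% and 32%, and GGGCGG (the GC box) in 89.5% and 42.6%. The shares count start sites, so a site before several starts counts at each, as the E box of SC5D does. By gene, 4 of the 28 held an E box, 19 an NF-Y box and 27 a GC box. These are descriptions of letters and no test was made. Sites that differ from these letters were not counted. The 250 bases before the SREBF2 start (chr22:41832855-41833104, plus strand) hold the sterol element, an NF-Y box on the other strand and GC boxes. The STARD4 promoter (chr5:111512596-111512785, minus strand, up to 60 bases before the start) holds a pair of NF-Y boxes and is shown because STARD4 had the largest fall of the list. Its GC box lies in the 60 bases next to the start, which are not shown. Matches to the 4 motifs are in capitals, 5′ to 3′ on the gene's strand.
SREBF2: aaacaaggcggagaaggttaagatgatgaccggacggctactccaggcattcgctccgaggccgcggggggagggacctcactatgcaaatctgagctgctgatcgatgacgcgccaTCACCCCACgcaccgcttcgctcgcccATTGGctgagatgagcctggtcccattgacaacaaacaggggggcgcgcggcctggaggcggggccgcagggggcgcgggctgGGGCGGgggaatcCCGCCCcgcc
STARD4: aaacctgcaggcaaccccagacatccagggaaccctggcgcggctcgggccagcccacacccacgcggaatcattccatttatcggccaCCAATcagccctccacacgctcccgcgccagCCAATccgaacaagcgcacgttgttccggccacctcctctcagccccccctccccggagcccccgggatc
Short pieces around single matches follow for INSIG1 (E box, chr7:155297813-155297838, plus), TM7SF2 (NF-Y box on the other strand, chr11:65111788-65111812, plus) and the 2 NF-Y boxes, also on the other strand, of the upstream HMGCS1 start (chr5:43313553-43313577 and chr5:43313498-43313522, minus), genes whose levels are given in full later.
INSIG1: cgggcaggctCACGTGatgcgggccc
TM7SF2: ccgagcgccgATTGGctggtgtgct
HMGCS1, distal box: tttccttttgATTGGtagaagccgg
HMGCS1, proximal box: accggccgcgATTGGctgtgggagc

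The libraries held 19308315 to 28648657 read pairs on genes (median 24292682), and the biological coefficient of variation over all tested genes was 3.47%. Each siRNA lowered its target, least for CHD4, whose mRNA went from 38.4 and 38.4 CPM (counts scaled to library size) in siCTL to 24.9 and 26.1 in siCHD4 (log2 fold change -0.54, SE 0.07, adjusted p = 1.17e-07), beside -2.37 for CARM1, -2.35 for HDAC2, -1.74 for GATAD2A and -2.59 for KDM1A on the same log2 scale. CHD4 shares 46.9% of its exonic bases with another annotated gene on its strand, so many of its reads may have been left uncounted as ambiguous. This applies to all libraries, and its effect on the fold change was not tested. CHD4 mRNA was also lower in siCARM1 (-0.32), and GATAD2A mRNA was higher in siCHD4 (1.09). Of 5 markers of the line, LIN28B, NEFL and VIM were expressed, while PAX2 and NEFM were under the expression filter. The 3 expressed markers were all higher in siCARM1 (0.36 to 0.87) and moved in the other knockdowns too, VIM from -0.64 in siGATAD2A to 0.81 in siCHD4, and their part in the results was not tested. Of 8 markers of liver, fat, blood, connective tissue and squamous cells, 2 to 6 had no count in a library. Their summed level was 0.638 to 1.73 CPM outside siCHD4 and 4.67 and 4.75 CPM in siCHD4, of which KRT5 held 2.47 and 2.81 CPM.

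Levels within the list spanned a wide range in siCTL. On the FPKM scale, which divides by exon length, FASN, the fatty acid synthase, was highest at 216.3 ± 5.37 (SD, n = 2), followed by ACLY, which makes cytosolic acetyl-CoA from citrate, at 106 ± 2.20, the stearoyl-CoA desaturase SCD at 87.4 ± 0.170 and the fatty acid desaturase FADS1 at 51.0 ± 1.40. The mevalonate enzyme HMGCS1 (32.6 ± 0.783), SREBF2 (31.7 ± 1.11) and FADS2 (31.2 ± 0.132) came next, each differing from its neighbour by less than the larger SD of the pair. Most sterol enzymes lay between 11.2 (SC5D) and 24.8 (LSS). At the low end were HSD17B7 (3.70 ± 0.0104), CYP51A1 (1.48 ± 0.0262) and ABCA1 (0.154 ± 0.00762). CYP51A1 shares 68.2% of its exonic bases with another annotated gene on its strand and EBP 36.4%, so reads of these genes may have been left uncounted as ambiguous. HSD17B7 and FDPS have near-identical pseudogene copies, and reads that match both are not in the counts.

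31 of the 32 genes passed the expression filter (FPKM over 0.5 in the mean of at least 1 group), the exception being ABCA1. Calls required a fold of at least 1.2 together with an adjusted p (Benjamini-Hochberg, over all 12830 tested genes) no larger than 0.05. In siCHD4, 18 of the 31 genes were lower than in siCTL and 3 higher, while 24.9% of all tested genes were lower and 24% higher. The median log2 fold change of the 31 genes was -0.34 in siCHD4 (22 of 31 negative), against 0.00 over all genes (49.8% negative). No other knockdown had a like share of lower genes. In siCARM1, 3 genes were lower and 3 higher (background 14.5% and 14.9%), in siHDAC2 1 was lower and 5 higher (9% and 10.6%), in siGATAD2A 3 and 3 (18.2% and 15.7%), and in siKDM1A 3 and 4 (11.5% and 14.2%). The medians of the list in these 4 knockdowns lay between -0.04 and 0.01. Across the 5 knockdowns, 24 of the 31 genes were called at least once, beside 9366 of 12830 genes, and none was called in all 5, beside 510 genes called in 1 direction in all 5. The same siCTL libraries enter all 5 comparisons, so a direction that the knockdowns share is not an independent repeat.

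The siCHD4 libraries were also compared directly with each other knockdown. The siCTL libraries do not enter these fold changes but do enter the estimate of spread, which all 6 groups share. Of the 31 genes, 17 were lower and 2 higher in siCHD4 than in siCARM1 (24.5% and 23.3% of all genes), 18 and 2 than in siHDAC2 (25.3% and 23.5%), 19 and 3 than in siGATAD2A (21.9% and 22.9%), and 17 and 2 than in siKDM1A (25% and 22.8%). The siCHD4 libraries are shared by all 4 of these comparisons. Of the 31 genes, 12 were lower in siCHD4 than in each of the other 4 knockdowns, beside 1535 of 12830 genes (12%). The same 12 were also lower than in siCTL, a condition not put to all genes. They were SREBF2, the mevalonate enzymes ACAT2, HMGCS1, PMVK, MVD and IDI1, the sterol enzymes FDFT1, TM7SF2, MSMO1 and HSD17B7, the desaturase FADS2 and the sterol carrier STARD4. LSS and ELOVL6 of the list were higher in siCHD4 than in each of the other 4, a direction for which the share of all genes was not counted. KRT5, a squamous marker, was 2.47 and 2.81 CPM in siCHD4 against at most 0.203 CPM elsewhere, and COL1A2 made up part of the rest of the marker sum. Their part in the result was not tested.

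**Figure D1:**
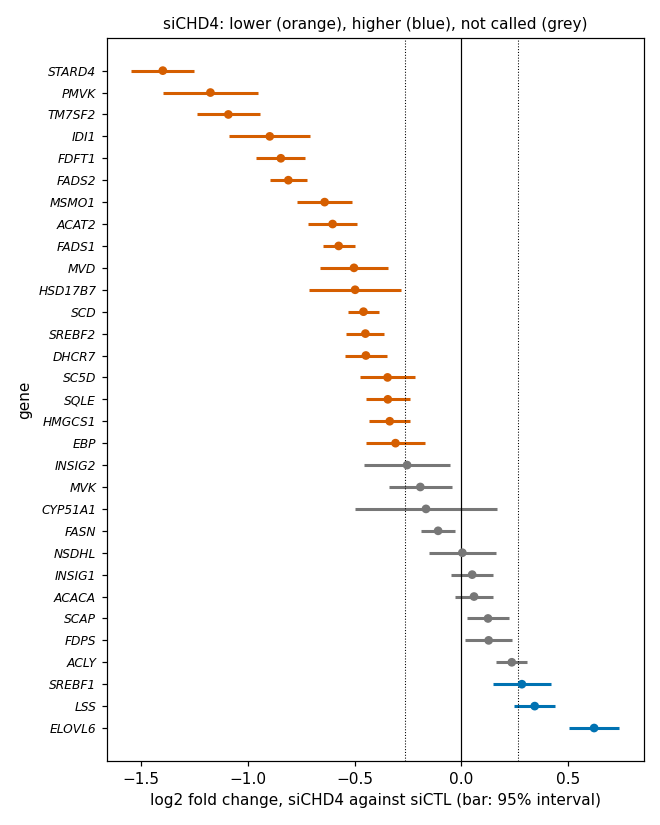
log2 fold change of each of the 31 tested genes in siCHD4 against siCTL, with its 95% interval as a bar, ordered by value. Dotted lines mark a fold of 1.2. The points run from STARD4 at -1.40 to ELOVL6 at 0.62, with 18 genes called lower and 3 higher.

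Among the regulators, SREBF1 (ENSG00000072310, GRCh37 chromosome 17) encodes SREBP-1, which acts mainly on fatty acid genes. SREBF1 was measured at 54.9 and 59.7 CPM in siCTL, 70.4 and 61.2 in siCARM1, 67.9 and 66.9 in siCHD4, 75.6 and 86.9 in siHDAC2, 108 and 105 in siGATAD2A and 67.4 and 66.5 in siKDM1A. All 10 knockdown libraries lay above both siCTL libraries, and those of siGATAD2A were highest. The log2 fold change was 0.90 (SE 0.06, adjusted p = 5.89e-13) in siGATAD2A, 0.52 (SE 0.07, adjusted p = 2.69e-07) in siHDAC2 and 0.28 (SE 0.07, adjusted p = 0.000483) in siCHD4. In siCARM1 (0.21) and siKDM1A (0.23) it did not reach the fold of 1.2. The siCHD4 call was lost without siCTL replicate 1 (0.22) or siCHD4 replicate 1 (0.26), and SREBF1 was called higher in siCARM1 without siCTL replicate 2 (0.27) or siCARM1 replicate 2 (0.30) and in siKDM1A without siCTL replicate 2 (0.29).

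SREBF2 (GRCh37 chromosome 22) encodes SREBP-2, the main activator of the cholesterol enzymes. SREBF2 was measured at 255 and 268 CPM in siCTL, 248 and 232 in siCARM1, 184 and 187 in siCHD4, 277 and 290.1 in siHDAC2, 270.0 and 270.4 in siGATAD2A and 299 and 288 in siKDM1A. The siCHD4 libraries were the lowest of all 12, and the siHDAC2, siGATAD2A and siKDM1A libraries lay above both siCTL libraries. SREBF2 was called only in siCHD4 (-0.45, SE 0.04, adjusted p = 1.97e-10), and the other values ran from -0.12 in siCARM1 to 0.17 in siKDM1A, each under the fold of 1.2.

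INSIG1, whose product retains SCAP in the endoplasmic reticulum and which is itself an SREBP target, was measured at 106 and 103 CPM in siCTL, 156 and 150.0 in siCARM1, 107 and 102 in siCHD4, 117 and 122 in siHDAC2, 131 and 130.2 in siGATAD2A and 151 and 156 in siKDM1A. The siCARM1 and siKDM1A libraries were the highest and overlapped only each other, while the siCHD4 libraries overlapped siCTL. INSIG1 was called higher in siCARM1 (0.55, SE 0.05, adjusted p = 5.63e-11), siKDM1A (0.56, SE 0.05, adjusted p = 5.49e-11) and siGATAD2A (0.33, SE 0.05, adjusted p = 9.85e-07), and was at 0.20 in siHDAC2 and 0.05 in siCHD4 without a call. SCAP and INSIG2 were called in none of the 5 knockdowns, with log2 fold changes of 0.05 to 0.19 for SCAP and -0.25 to -0.03 for INSIG2.

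**Figure D2:**
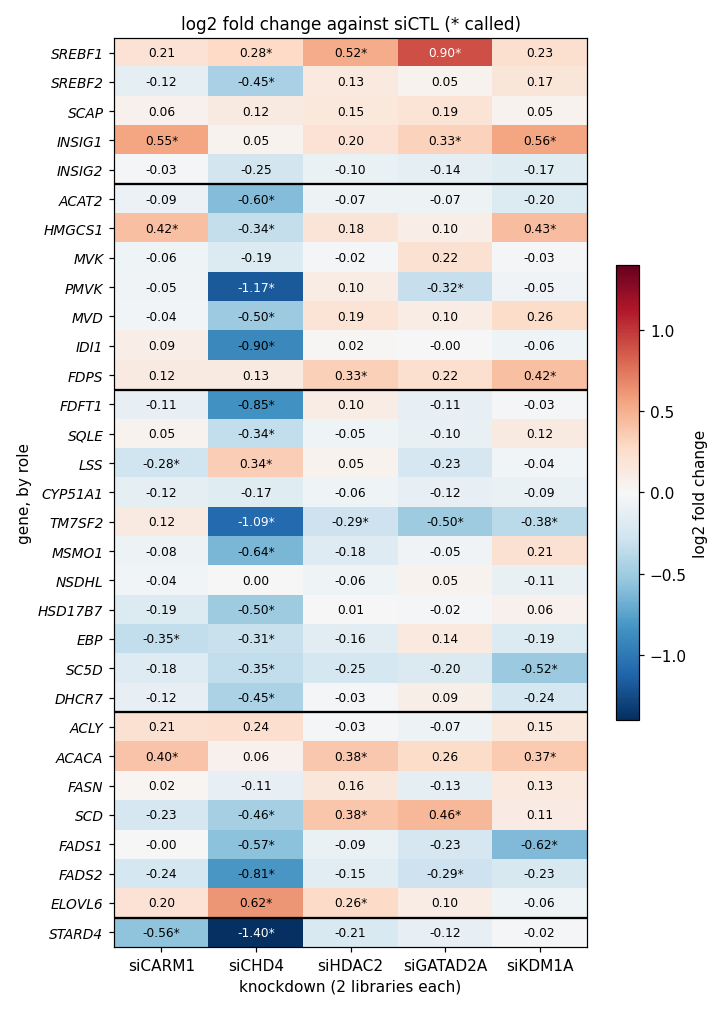
log2 fold change against siCTL of the 31 tested genes (rows, in order of role from regulators to the sterol carrier STARD4) in the 5 knockdowns (columns), with an asterisk for a call. The siCHD4 column holds 21 of the asterisks, most of them on blue cells, and SREBF1 in siGATAD2A is the highest value at 0.90.

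Of the 7 mevalonate enzymes, 5 were lower and none higher in siCHD4 (24.9% and 24% of all genes), with a median log2 fold change of -0.50. PMVK, phosphomevalonate kinase (GRCh37 chromosome 1, 154897216 to 154909195, minus strand), was measured at 21.2 and 23.7 CPM in siCTL, 22.4 and 20.7 in siCARM1, 9.54 and 9.69 in siCHD4, 23.0 and 24.7 in siHDAC2, 17.8 and 17.9 in siGATAD2A and 24.3 and 19.2 in siKDM1A. Both siCHD4 libraries were under 10 CPM, less than any other library. PMVK had the largest fall of the mevalonate enzymes, -1.17 (SE 0.11, adjusted p = 6.29e-11) in siCHD4, which is 2.26-fold. It was also lower in siGATAD2A (-0.32, SE 0.10, adjusted p = 0.00711), a call lost without siCTL replicate 2 (-0.23).

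HMGCS1, the cytosolic HMG-CoA synthase and a classical SREBP target, was measured at 218 and 225 CPM in siCTL, 288 and 306 in siCARM1, 167 and 172 in siCHD4, 261 and 237 in siHDAC2, 239 and 232 in siGATAD2A and 289 and 307 in siKDM1A. The siCARM1 and siKDM1A libraries lay above all others and the siCHD4 libraries below all others. HMGCS1 was higher in siCARM1 (0.42, SE 0.05, adjusted p = 7.13e-09) and siKDM1A (0.43, SE 0.05, adjusted p = 5.6e-09) and lower in siCHD4 (-0.34, SE 0.05, adjusted p = 2.8e-07). siCHD4 and siKDM1A differed directly by -0.77 (SE 0.05, adjusted p = 4.1e-15). In siHDAC2 (0.18) and siGATAD2A (0.10) it was not called.

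Of the other mevalonate enzymes, the isomerase IDI1 (-0.90, SE 0.09, adjusted p = 7.49e-10), the acetoacetyl-CoA thiolase ACAT2 (-0.60, SE 0.06, adjusted p = 7.55e-11) and the decarboxylase MVD (-0.50, SE 0.08, adjusted p = 1.47e-06) were lower in siCHD4 and called in no other knockdown. FDPS, farnesyl pyrophosphate synthase, was not called in siCHD4 (0.13) and was higher in siKDM1A (0.42, SE 0.05, adjusted p = 1.64e-07) and siHDAC2 (0.33, SE 0.05, adjusted p = 1.51e-05). MVK, mevalonate kinase, was called in none, at -0.19 in siCHD4 to 0.22 in siGATAD2A. The summed FPKM of the 7 genes was 115 and 119 in siCTL, 82.9 and 82.1 in siCHD4 and 117 to 132 in the other 8 libraries. In bulk RNA, fewer cells with a transcript and less of it per cell cannot be told apart.

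Of the 11 squalene and sterol ring enzymes, 8 were lower and 1 higher in siCHD4 (24.9% and 24% of all genes), with a median of -0.35. TM7SF2, a sterol C14 reductase of the nuclear and endoplasmic reticulum membranes (GRCh37 chromosome 11, 64879317 to 64883856, plus strand), was measured at 84.4 and 82.3 CPM in siCTL, 95.9 and 84.5 in siCARM1, 38.1 and 37.4 in siCHD4, 59.9 and 73.6 in siHDAC2, 57.4 and 59.8 in siGATAD2A and 63.7 and 63.6 in siKDM1A. The siCHD4 libraries were lowest, and all libraries of siHDAC2, siGATAD2A and siKDM1A lay below siCTL, with the siHDAC2 libraries the farthest apart. TM7SF2 was the gene of the list called lower in most knockdowns, 4 of 5, with -1.09 (SE 0.07, adjusted p = 4.05e-14) in siCHD4, -0.50 (SE 0.07, adjusted p = 4.78e-07) in siGATAD2A, -0.38 (SE 0.07, adjusted p = 4.44e-05) in siKDM1A and -0.29 (SE 0.07, adjusted p = 0.00122) in siHDAC2. It was at 0.12 in siCARM1. The siHDAC2 call was lost without siHDAC2 replicate 1 (-0.16).

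LSS, lanosterol synthase, which closes the sterol rings, was measured at 179 and 189.7 CPM in siCTL, 157 and 146 in siCARM1, 223 and 228 in siCHD4, 182 and 195 in siHDAC2, 159 and 154 in siGATAD2A and 183 and 175 in siKDM1A. The siCHD4 libraries were the highest of all and the siCARM1 and siGATAD2A libraries the lowest. LSS was higher in siCHD4 (0.34, SE 0.05, adjusted p = 1.78e-07) and lower in siCARM1 (-0.28, SE 0.05, adjusted p = 1.66e-05), and the direct difference between siCHD4 and siCARM1 was 0.62 (SE 0.05, adjusted p = 9.03e-13). The siCARM1 call was lost without siCTL replicate 2 or siCARM1 replicate 2 (-0.23 in both), and LSS was called lower in siGATAD2A without siCTL replicate 1 (-0.27).

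EBP, the sterol isomerase, was measured at 40.9 and 41.2 CPM in siCTL, 32.5 and 31.8 in siCARM1, 33.3 and 30.7 in siCHD4, 38.0 and 35.0 in siHDAC2, 44.6 and 45.3 in siGATAD2A and 36.7 and 35.1 in siKDM1A. The siCARM1 and siCHD4 libraries were the lowest, the siHDAC2 and siKDM1A libraries also lay below both siCTL libraries, and the siGATAD2A libraries lay above. EBP was lower in siCARM1 (-0.35, SE 0.07, adjusted p = 0.000112) and in siCHD4 (-0.31, SE 0.07, adjusted p = 0.00023), where the call was lost without siCHD4 replicate 2 (-0.26). SC5D, the lathosterol desaturase, was measured at 115 and 116 CPM in siCTL, 95.9 and 108 in siCARM1, 84.5 and 91.3 in siCHD4, 98.6 and 94.4 in siHDAC2, 97.9 and 103 in siGATAD2A and 73.7 and 86.9 in siKDM1A. All 10 knockdown libraries were below both siCTL libraries. SC5D was lower in siKDM1A (-0.52, SE 0.06, adjusted p = 6.72e-08) and siCHD4 (-0.35, SE 0.06, adjusted p = 1.51e-05), and was called lower in siCARM1 only without siCARM1 replicate 2 (-0.27) and in siHDAC2 only without siHDAC2 replicate 1 (-0.28).

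The other called genes of these steps were lower in siCHD4 and called nowhere else. They were the squalene synthase FDFT1 (-0.85, SE 0.06, adjusted p = 3.49e-14), the methyl sterol oxidase MSMO1 (-0.64, SE 0.06, adjusted p = 2.81e-10), the keto reductase HSD17B7 (-0.50, SE 0.11, adjusted p = 0.000138), the last-step reductase DHCR7 (-0.45, SE 0.05, adjusted p = 1.46e-09) and the squalene epoxidase SQLE (-0.34, SE 0.05, adjusted p = 6.16e-07). CYP51A1 and NSDHL, which act on the methyl groups of lanosterol, were called in none of the 5 knockdowns. In siCHD4, CYP51A1 was at -0.17 with a 95% interval of -0.50 to 0.17, at a mean of 131 counts per siCTL library, and NSDHL was at 0.00.

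**Figure D3:**
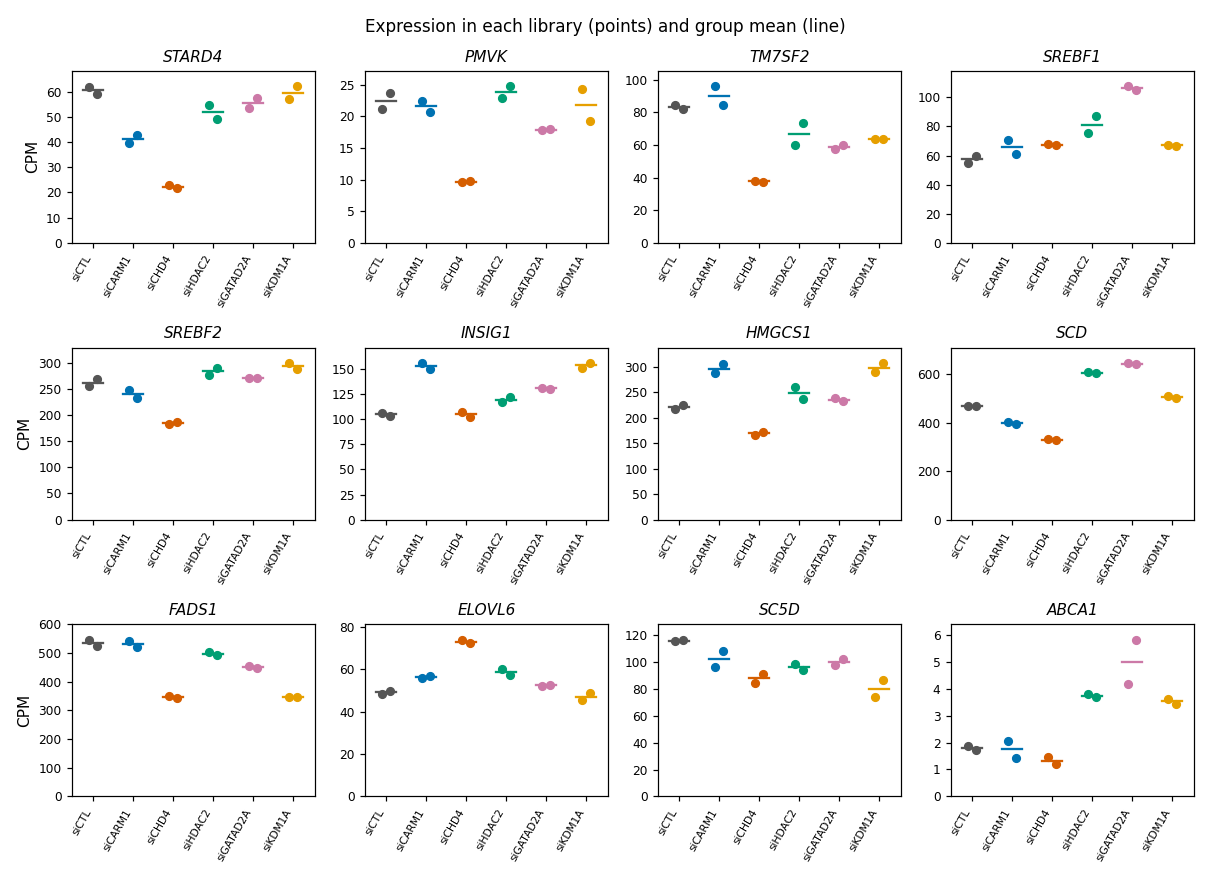
CPM of 12 genes in each of the 12 libraries (points) with the mean of each group (line), on axes that start at 0. STARD4, PMVK and TM7SF2 are lowest in the siCHD4 libraries, SREBF1 is highest in siGATAD2A at over 100 CPM, INSIG1 and HMGCS1 are highest in siCARM1 and siKDM1A, and ABCA1 is at or under 5.80 CPM throughout.

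The fatty acid genes moved in both directions. In siCHD4, 3 of 7 were lower and 1 higher (24.9% and 24% of all genes), and in siHDAC2 none was lower and 3 were higher (9% and 10.6%). ACACA, the acetyl-CoA carboxylase that makes malonyl-CoA, was measured at 203 and 201 CPM in siCTL, 255 and 278 in siCARM1, 203 and 203 in siCHD4, 263 and 255 in siHDAC2, 235 and 246 in siGATAD2A and 258 and 260.2 in siKDM1A. The siCHD4 libraries lay within 2 CPM of siCTL and the other 8 knockdown libraries lay above it. ACACA was higher in siCARM1 (0.40, SE 0.04, adjusted p = 6.58e-09), siHDAC2 (0.38, SE 0.04, adjusted p = 5.64e-08) and siKDM1A (0.37, SE 0.04, adjusted p = 5.12e-08). In siGATAD2A it was at 0.26, just under the fold of 1.2, and passed without siCTL replicate 1 (0.26) or siGATAD2A replicate 1 (0.29).

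SCD, which puts the double bond into stearate, was measured at 471 and 469.7 CPM in siCTL, 404 and 394 in siCARM1, 331 and 329.8 in siCHD4, 611 and 604 in siHDAC2, 646 and 644 in siGATAD2A and 509.6 and 502 in siKDM1A. No 2 groups overlapped, and the order ran from siCHD4 through siCARM1, siCTL, siKDM1A and siHDAC2 to siGATAD2A. SCD was higher in siGATAD2A (0.46, SE 0.04, adjusted p = 1.87e-12) and siHDAC2 (0.38, SE 0.04, adjusted p = 5.38e-10) and lower in siCHD4 (-0.46, SE 0.04, adjusted p = 1.36e-12). The direct difference between siCHD4 and siGATAD2A was -0.92 (SE 0.04, adjusted p = 5.49e-20), the largest of SCD between any 2 knockdowns.

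FADS1, the delta-5 desaturase, was measured at 546 and 525 CPM in siCTL, 543 and 521 in siCARM1, 349.6 and 344 in siCHD4, 502 and 492 in siHDAC2, 456 and 449.9 in siGATAD2A and 348 and 347 in siKDM1A. The siCHD4 and siKDM1A libraries lay close together, below every other library. FADS1 was lower in siKDM1A (-0.62, SE 0.04, adjusted p = 2.33e-14) and siCHD4 (-0.57, SE 0.04, adjusted p = 1.66e-14), and was at 0.00 in siCARM1. FADS2, the delta-6 desaturase that lies next to it on chromosome 11, was lower in siCHD4 (-0.81, SE 0.04, adjusted p = 1.27e-16) and siGATAD2A (-0.29, SE 0.04, adjusted p = 1.08e-06).

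ELOVL6, the elongase of palmitate, was measured at 48.3 and 49.9 CPM in siCTL, 56.0 and 56.7 in siCARM1, 73.7 and 72.2 in siCHD4, 59.9 and 57.1 in siHDAC2, 52.0 and 52.7 in siGATAD2A and 45.3 and 48.5 in siKDM1A. It was highest in siCHD4, and only the siKDM1A libraries reached down to the siCTL range. ELOVL6 was higher in siCHD4 (0.62, SE 0.06, adjusted p = 6.24e-11). In siHDAC2 it was just past the fold of 1.2 (0.26, SE 0.06, adjusted p = 0.000673), a call lost without siCTL replicate 1 (0.24) or siHDAC2 replicate 1 (0.23), and under small shifts from leaving out libraries of other groups (siCARM1 replicate 2, either siCHD4 replicate or siKDM1A replicate 1), all at 0.26. FASN and ACLY, the most abundant transcripts of the list, were called in no knockdown. FASN ran from -0.13 in siGATAD2A to 0.16 in siHDAC2, and ACLY from -0.07 in siGATAD2A to 0.24 in siCHD4.

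STARD4, a soluble carrier that moves cholesterol between membranes and an SREBP-2 target (GRCh37 chromosome 5, 110831731 to 110848288, minus strand), was measured at 62.0 and 59.3 CPM in siCTL, 39.6 and 42.6 in siCARM1, 22.8 and 21.6 in siCHD4, 54.7 and 49.2 in siHDAC2, 53.6 and 57.6 in siGATAD2A and 57.0 and 62.1 in siKDM1A. The siCHD4 libraries were the lowest, and the siCARM1 libraries lay between them and all other groups. STARD4 had the largest fall of the list, -1.40 (SE 0.07, adjusted p = 7.4e-17) in siCHD4, and was lower by less in siCARM1 (-0.56, SE 0.07, adjusted p = 4.95e-08). siCHD4 and siCARM1 differed by -0.84 (SE 0.07, adjusted p = 2.63e-11). STARD4 was called lower in siHDAC2 only without siHDAC2 replicate 1 (-0.29).

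ABCA1, the exporter of cholesterol to apolipoproteins and an LXR target, was measured at 1.86 and 1.74 CPM in siCTL, 2.06 and 1.43 in siCARM1, 1.45 and 1.197 in siCHD4, 3.81 and 3.68 in siHDAC2, 4.16 and 5.80 in siGATAD2A and 3.61 and 3.45 in siKDM1A. The siHDAC2, siGATAD2A and siKDM1A libraries lay above all others, and siCTL, siCARM1 and siCHD4 lay at or under 2.06 CPM. Since ABCA1 was under the expression filter, its test comes from the fit to all 17903 coding genes with at least 1 count. There ABCA1 was higher in siGATAD2A (log2 fold change 1.47, SE 0.22, adjusted p = 2.24e-10), siHDAC2 (1.06, SE 0.23, adjusted p = 4.03e-05) and siKDM1A (0.97, SE 0.23, adjusted p = 0.000189) by edgeR. It was not called in siCARM1 (-0.02, 95% interval -0.53 to 0.49) or siCHD4 (-0.41, 95% interval -0.95 to 0.13).

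Genes around the pathway were taken from 7 lists. Their counts are to be read against the shares of all tested genes called lower and higher, which were 14.5% and 14.9% in siCARM1, 24.9% and 24% in siCHD4, 9% and 10.6% in siHDAC2, 18.2% and 15.7% in siGATAD2A and 11.5% and 14.2% in siKDM1A. Of 8 genes of SREBP processing and sterol-regulated degradation, 1 was lower and 4 higher in siCHD4 (12.5% and 50% of the list, 24.9% and 24% of all genes), 2 lower and none higher in siGATAD2A (18.2% and 15.7% of all), and none lower with 2, 2 and 3 higher in siCARM1, siHDAC2 and siKDM1A (14.9%, 10.6% and 14.2% of all higher). ERLIN1 and ERLIN2 form a complex in the endoplasmic reticulum. ERLIN1 was higher in 4 knockdowns (0.38 to 0.74), while ERLIN2 was lower in siCHD4 (-0.57, SE 0.05, adjusted p = 1.89e-11) and higher in siCARM1 (0.44, SE 0.05, adjusted p = 6.65e-09), siHDAC2 (0.43) and siKDM1A (0.40). RNF145, a ubiquitin ligase, was highest in siCHD4 (0.86), and MBTPS1, the first protease that cuts SREBP, was lower in siGATAD2A (-0.35).

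Of 8 genes of LXR and its other targets, 4 were lower and 2 higher in siCHD4 (50% and 25% of the list, 24.9% and 24% of all genes), 3 and 1 in siCARM1 (14.5% and 14.9% of all), none and 2 in siHDAC2 (9% and 10.6%), 1 and 3 in siGATAD2A (18.2% and 15.7%), and 1 and 2 in siKDM1A (11.5% and 14.2%). NR1H3, which encodes LXR alpha, was higher in all 5 (0.49 in siKDM1A to 1.11 in siGATAD2A). ABCG1, a sterol exporter with a low level in these cells, was measured at 1.81 and 1.51 CPM in siCTL, 0.847 and 0.876 in siCARM1, 0.909 and 0.519 in siCHD4, 5.24 and 5.32 in siHDAC2, 5.96 and 6.10 in siGATAD2A and 2.77 and 2.63 in siKDM1A. It was higher in siGATAD2A (1.87, SE 0.21, adjusted p = 6.87e-09), siHDAC2 (1.69, SE 0.21, adjusted p = 2.47e-07) and siKDM1A (0.72, SE 0.24, adjusted p = 0.016), the knockdowns in which ABCA1 was higher, and lower in siCHD4 (-1.16, SE 0.31, adjusted p = 0.0017) and siCARM1 (-0.93, SE 0.30, adjusted p = 0.0111). ABCG1 passed the expression filter only through its levels in siHDAC2 and siGATAD2A. Its higher calls in these groups, and its place in the counts of this list, therefore depend on that filter.

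Of 11 genes of the isoprenoid branches, which take farnesyl and geranylgeranyl groups from the mevalonate pathway, 1 was lower and 3 higher in siCARM1 (14.5% and 14.9% of all genes), 3 and 3 in siCHD4, 1 and 2 in siHDAC2 (9% and 10.6%), 3 and 4 in siGATAD2A (18.2% and 15.7%), and 2 and 2 in siKDM1A (11.5% and 14.2%). The siCHD4 shares, 27.3% in each direction, were near those of all genes (24.9% and 24%). The subunits of Rab geranylgeranyl transferase differed in direction. RABGGTA was lower in all 5 (-0.77 to -0.29), and RABGGTB was higher in 4 (0.28 to 0.55). NUS1, for dolichol, was higher in 4 (0.27 to 0.61), as was PDSS2, for the ubiquinone tail (0.28 to 0.64). FNTB, a farnesyltransferase subunit, was lower in siKDM1A (-0.52) and siGATAD2A (-0.51). It shares 44% of its exonic bases with another annotated gene on its strand, so its reads may have been left uncounted as ambiguous.

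Of 8 other genes of cholesterol handling, 3 were lower and 1 higher in siCARM1 (14.5% and 14.9% of all genes), 2 and 1 in siCHD4 (25% and 12.5% of the list, 24.9% and 24% of all), 1 and 1 in siHDAC2 (9% and 10.6%), 4 and 1 in siGATAD2A (18.2% and 15.7%), and 2 and none in siKDM1A (11.5% and 14.2%). NPC1, which exports cholesterol from lysosomes, was lower in the 4 knockdowns other than siCHD4 (-0.50 to -0.33) and at 0.07 in siCHD4. SOAT1, which esterifies cholesterol, was lower in siCHD4 (-0.67) and siCARM1 (-0.52), and the lysosomal lipase LIPA in siGATAD2A (-0.73) and siCHD4 (-0.67).

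Of 18 other genes of fatty acid synthesis, elongation and activation, 2 were lower and 3 higher in siCARM1 (11.1% and 16.7% of the list, 14.5% and 14.9% of all genes), 5 and 3 in siCHD4 (27.8% and 16.7%, against 24.9% and 24%), 1 and 3 in siHDAC2 (5.56% and 16.7%, against 9% and 10.6%), 3 and 3 in siGATAD2A (16.7% each, against 18.2% and 15.7%), and 2 and 3 in siKDM1A (11.1% and 16.7%, against 11.5% and 14.2%). These shares were near those of all genes in most of the comparisons. ME1, the malic enzyme that supplies NADPH, was higher in all 5 (0.56 in siCHD4 to 0.99 in siGATAD2A). ACACB, the mitochondrial acetyl-CoA carboxylase, was lower in siCHD4 (-0.74). ACSL4, which activates polyunsaturated fatty acids, was higher in siCARM1 (0.76), siKDM1A (0.43) and siHDAC2 (0.31) and lower in siGATAD2A (-0.67).

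Of 13 tested genes of glycerolipid synthesis, 6 were lower and none higher in siCARM1 (14.5% and 14.9% of all genes), 5 and 4 in siCHD4 (24.9% and 24%), 2 and none in siHDAC2 (9% and 10.6%), and 5 and none in each of siGATAD2A (18.2% and 15.7%) and siKDM1A (11.5% and 14.2%). PCYT2, of phosphatidylethanolamine synthesis, was lower in 4 (-0.75 to -0.44), as was the acyltransferase AGPAT3 (-0.68 to -0.29). DGAT2, which makes triglyceride, was lower in siGATAD2A (-1.31, SE 0.12, adjusted p = 2.4e-10), siCHD4 (-1.03, SE 0.12, adjusted p = 8.4e-09) and siCARM1 (-0.43, SE 0.11, adjusted p = 0.00228). AGPAT2 was higher in siCHD4 (0.28) and lower in siGATAD2A (-0.43), siKDM1A (-0.35) and siHDAC2 (-0.31), and AGPAT5 was higher in siCHD4 (0.31) and lower in siKDM1A (-0.74) and siHDAC2 (-0.36).

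Of 10 genes of fatty acid oxidation, none was lower and 3 were higher in siCHD4 (24.9% and 24% of all genes), 4 were lower and 1 higher in siGATAD2A (18.2% and 15.7%), and none was higher in siCARM1, siHDAC2 and siKDM1A, where 1, 1 and 2 were lower (14.5%, 9% and 11.5% of all). PPARA, a receptor that induces oxidation genes, was higher in siCHD4 (0.99) and siGATAD2A (0.30) and lower in siKDM1A (-0.31). HADHB, a subunit of the mitochondrial trifunctional protein, was lower in siGATAD2A (-0.41) and siHDAC2 (-0.37), and CPT1A, which admits fatty acids to mitochondria, in siCARM1 (-0.32).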

How the data were processed

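RNA-seq was analysed in 12 libraries, 2 in each of 6 siRNA groups taken from the labels. For each Ensembl gene the authors deposited the raw count of read pairs, with no normalization seen, in the layout of STAR's gene counts. Per the labels' processing notes, STAR 2.7.10 and CASAVA 1.4 were used with hg19, and the paper's methods name TopHat, HOMER and DESeq2. The annotation behind the counts is not given in the sources used here. The reverse-strand column (column 4) was used because the kit is directional, while the column of the opposite strand summed to 7.93% to 8.40% of it. Read pairs on no gene were 17.2% to 21.2% of a library and were left out, as were those with several locations (5.44% to 10.6%). Which library was sequenced at which of the 2 centres in the methods is not stated.

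Identifiers were matched to GENCODE release 44 mapped to GRCh37 (58662 of 60660). CPM and FPKM were computed here from the deposited counts. Coding genes with FPKM over 0.5 in the mean of at least 1 group (12830) were fitted with edgeR 4.0.16 (R 4.3.3, TMM, quasi-likelihood, a mean for each of 6 groups), with p-values adjusted over all of them within a comparison. An exact permutation test of 2 against 2 libraries cannot go below p = 0.333 and was not used. The alternatives were DESeq2 1.42.0, RLE, a fit of the 2 groups alone, counts without strand, the replicate block, FPKM over 1, coding genes with at least 1 count, no fold minimum and each library left out. The scripts were tested on simulated data. The genes and lists were chosen with earlier results of these data known. Values were printed in full for genes called in the same direction in at least 3 knockdowns, for the 2 called with the largest change per direction and knockdown, and for SREBF1, SREBF2, INSIG1 and ABCA1. Genes of other lists were named when called in at least 4 knockdowns or largest in their list, apart from a gene that is not reported here. Between replicates of each group, counts differed by more than sampling noise (chi-square per degree of freedom 1.77 to 4.97), so none was taken for a repeat of another.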

Additional observations from a re-analysis of the deposited data

Results flagged for a closer look

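Genes with calls in opposite directions in 2 knockdowns are given here, with edgeR's test of 1 knockdown against the other. In the list itself, HMGCS1 differed by -0.77 (SE 0.05, adjusted p = 4.1e-15) between siCHD4 and siKDM1A, LSS by 0.62 (SE 0.05, adjusted p = 9.03e-13) between siCHD4 and siCARM1, and SCD by -0.92 (SE 0.04, adjusted p = 5.49e-20) between siCHD4 and siGATAD2A. These 3 of 31 genes stand beside 1215 of 12830 tested genes with opposite calls.

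Among the genes around the pathway, ABCG1 differed by -3.03 (SE 0.24, adjusted p = 1.94e-12) between siCHD4 and siGATAD2A. It passed the expression filter only through siGATAD2A and siHDAC2, where it is high. ERLIN2 differed by -1.01 (SE 0.05, adjusted p = 1.75e-17) between siCHD4 and siCARM1, and ACSL4 by -1.42 (SE 0.06, adjusted p = 3.75e-18) between siGATAD2A and siCARM1. AGPAT2 differed by 0.72 (SE 0.05, adjusted p = 3.37e-13) between siCHD4 and siGATAD2A, AGPAT5 by 1.05 (SE 0.07, adjusted p = 2.16e-14) and PPARA by 1.30 (SE 0.07, adjusted p = 5.49e-16) between siCHD4 and siKDM1A. Each value is the largest among the pairs with opposite calls for that gene.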

How the results depend on the processing

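Of 1330 recomputed log2 fold changes of 14 genes described in full (ABCA1, outside the filter, was not among them), 1303 kept their direction and call, 17 lost the call, 10 gained it and none turned its direction. Apart from libraries left out, 5 changed: SREBF1 in siCHD4 (0.26) and ELOVL6 in siHDAC2 (0.25) lost the call with all coding genes of at least 1 count, ELOVL6 in siHDAC2 also with RLE and with DESeq2 (0.26 in both), and ACACA in siGATAD2A gained it with FPKM over 1 (0.26). These values lie at the fold minimum. Without the fold minimum, the genes of the list lower and higher were 8 and 6 of 31 in siCARM1 (23.1% and 23.6% of all genes). They were 5 and 11 in siHDAC2 (17.6% and 17.8%), 7 and 7 in siGATAD2A (26% and 25.5%) and 7 and 12 in siKDM1A (20.4% and 21.9%). In siCHD4, INSIG2, MVK and FASN joined the 18 lower genes (32.5% of all genes lower), and 6 were higher (33.2%). Leaving out each library in turn gave 17 to 19 lower and 2 to 3 higher in siCHD4, 2 to 4 and 3 to 4 in siCARM1, 1 to 2 and 4 to 5 in siHDAC2 (2 lower without siHDAC2 replicate 1 or siHDAC2 replicate 2), 2 to 4 and 3 to 4 in siGATAD2A, and 3 to 4 and 4 to 6 in siKDM1A. Where a group kept 1 library, that library was assumed to vary like the others. With the replicate block, 18 genes were lower and 3 higher in siCHD4, as without it, and no other count of the list moved. The correlation of same-numbered libraries' deviations was -0.18 to 0.17 over 15 pairs of groups. Whether same-numbered libraries shared a preparation or a sequencing run is not stated. These correlations cannot settle it, since each group gives only 1 deviation per gene. With 2 libraries per group, changes near the fold minimum are the least certain, and CYP51A1, ABCA1 and ABCG1 rest on the fewest reads.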
